A study of Mus musculus with 6 samples.

Results

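The genes described here are the MAP kinase cascade and the dual-specificity phosphatases, taken as every row of the deposited table whose symbol begins with Mapk, Map2k, Map3k, Map4k or Dusp followed by a digit. The rule found 58 of 12968 genes, namely 34 kinases, 19 phosphatases and 5 accessory genes, and it used no measured value. They were followed in RNA bound to tagged ribosomes from the middle part of the left brain hemisphere of 6 mice. In the 3 MCAO mice the middle cerebral artery had been occluded for 1 h, and the 3 control mice had no occlusion; killing followed after 3 days in both groups. Mice of both groups carry RiboTag, an allele that lets Cre recombinase attach an epitope to Rpl22, a ribosomal protein, so that ribosomes of recombined cells can be pulled down. The series title speaks of astrocytes, but no label or design text names the Cre driver or a sham operation. Each library is 1 animal, whose precipitated RNA was pooled from 2 pulldowns and has 2 technical replicates joined in 1 column. Replicate numbers were given in record order and pair no animals.

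MAP kinases are the last tier of a phosphorylation relay. A MAP3K phosphorylates a MAP2K, which phosphorylates a MAP kinase on a threonine and a tyrosine, and MAP4Ks act above some MAP3Ks. The main branches end in the ERK kinases, classically driven by growth factors and neuronal activity, and in the JNK and p38 kinases, classically driven by stress and inflammation. Among the dual-specificity phosphatases (DUSPs), the MAP kinase phosphatases remove phosphate from both residues. The phosphatases counted here also include 11 atypical DUSPs, of which not all act on MAP kinases. Several DUSP genes are themselves induced by MAP kinase signalling and so form a negative feedback. Activity of the cascade is set by phosphorylation, which RNA levels do not measure.

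Values are normalised read counts per gene, called scaled read counts below, of which 1 read was worth 0.288 in control 1 and 3.11 in MCAO 2, the deepest and the shallowest library. Recovered reads numbered 4567615, 882263 and 4027185 in MCAO 1, 2 and 3, and 9519548, 1538901 and 1816934 in controls 1, 2 and 3. Rpl22 had 222, 311 and 219 scaled reads in MCAO 1, 2 and 3, against 202, 161 and 226 in controls 1, 2 and 3 (log2 change 0.35, SE 0.19, limma adjusted p = 0.330). All 58 members were above the floor of the table in every library. In 12 of them some library held fewer than 10 reads, and in 9 of these the fewest were in MCAO 2. Of the 58, 57 had a mean of at least 10 scaled reads and were tested. The exception was Dusp23, with 7.65, 18.7 and 5.99 scaled reads in MCAO 1, 2 and 3, against 5.47, 8.87 and 7.55 in controls 1, 2 and 3. In RefSeq 74 mouse gene symbols match the rule. The other 16, among them Dusp2, Dusp9, Map3k6, Map3k8, Mapk12 and Mapk13, are not analysed here, except that Map3k20 stands in the table under its older symbol Zak and is counted with the other pathway genes.

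None of the 57 genes was called. By limma with Benjamini-Hochberg adjustment over 12549 genes, 0 members were higher and 0 lower after MCAO at an adjusted p under 0.05, where 3.08% of all genes tested were called (2.3% higher and 0.789% lower). The smallest adjusted p of a member was 0.0780, for Map3k12. With libraries weighted by their quality 4 members were called (Map2k2, Map3k9, Map3k10 and Mapk4), where 7.98% of all genes were, and with control 2 and MCAO 2 left out 1 was (Mapk4), where 4.46% of all genes were. At an unadjusted p under 0.05 there were 11 members (19.3% of them, against 19.3% of all genes tested), 10 of them lower and 1 higher. The lower ones made up 17.5% of the members, beside 9.16% of all genes, and the higher one 1.75%, beside 10.1%. The groups did not overlap in 16 members (28.1%, against 24.9% of all genes). The 3 MCAO libraries lay all below the 3 controls in 12 members (21.1%, against 12.5% of all genes) and all above them in 4 (7.02%, against 12.4%). Members share their libraries and are not independent of each other, and these shares are given as a description. Log2 changes of MCAO over control ran from -1.01 to 0.73. The 95% interval of the log2 change lay between -1 and 1 for 45 of the 57, so that for these a change as large as that bound in either direction lies outside the interval. It reached -1 or below in 8 and 1 or above in 5.

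**Figure D1:**
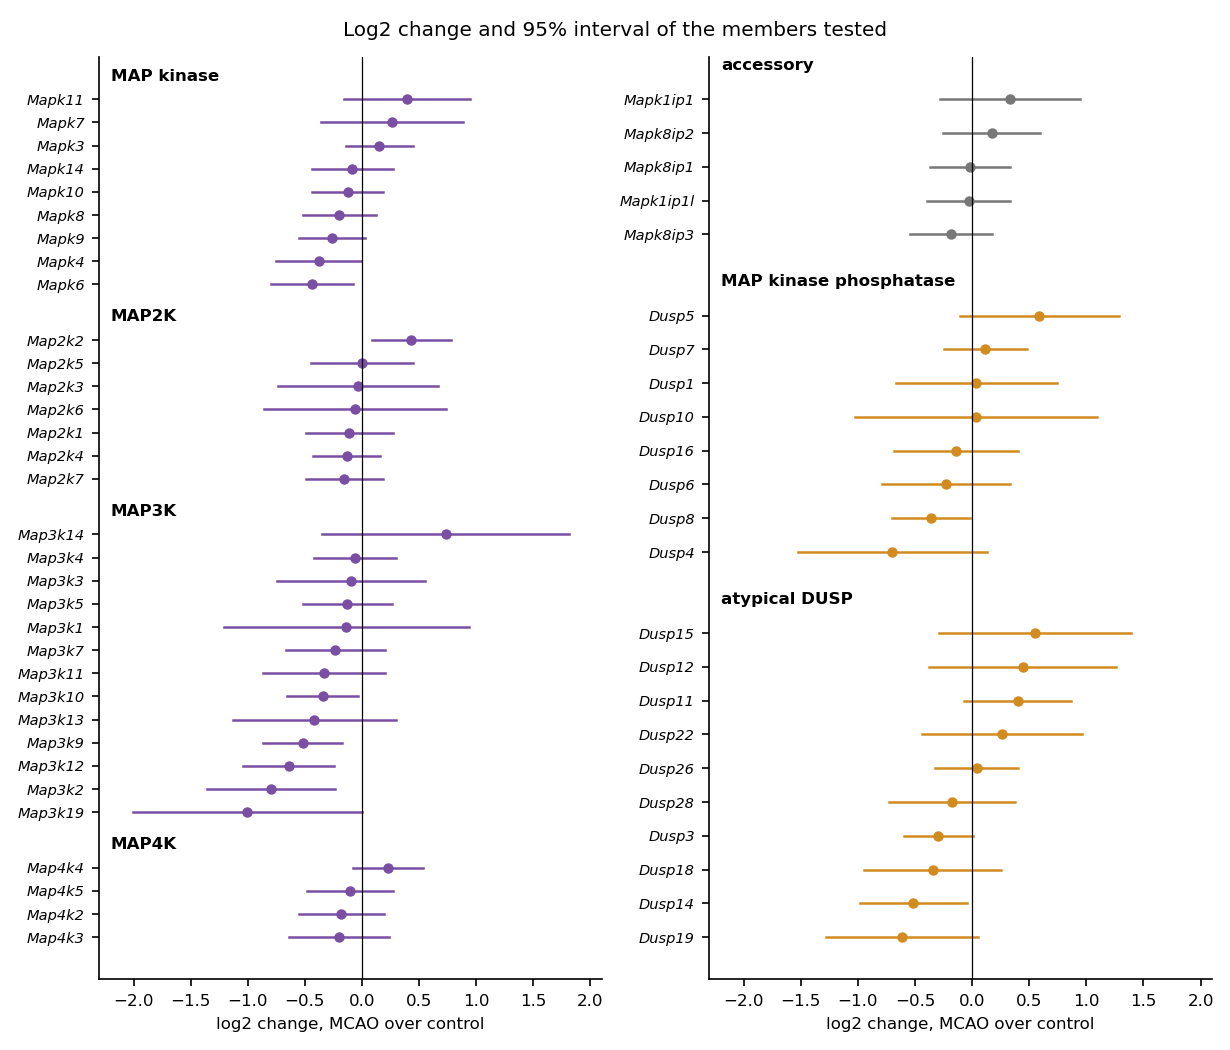
Log2 change of scaled read counts, MCAO over control (x axis), with its 95% interval from the limma fit, for 56 of the members tested, grouped by role (purple, kinases; grey, accessory genes; orange, phosphatases). Points of 12 of the 13 MAP3K genes lie left of 0, while the phosphatases lie 9 on each side, and 10 of the intervals shown leave out 0.

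Most kinases had a lower mean value after MCAO, and the phosphatases were evenly divided. The median log2 change was -0.14 over 34 kinases and -0.05 over 18 phosphatases, beside -0.01 over all genes tested. It was negative in 27 of the 34 kinases (79.4%), in 9 of the 18 phosphatases and in 51.3% of all genes. The difference of the medians, kinases minus phosphatases, was -0.08, and it was 0.01 in genes averaging 50 or more scaled reads, 0.01 after quantile normalisation and 0.04 without MCAO 3, so that its sign turned. Within libraries, the mean log2 level of the kinases minus that of the phosphatases was 1.04, 1.14 and 0.91 in MCAO 1, 2 and 3, against 1.10, 1.29 and 1.03 in controls 1, 2 and 3. The groups overlap in this measure. Its absolute size depends on transcript length and only its change between libraries can be read. Spread between libraries of a group was also described. The median standard deviation of log2 values within groups was 0.288 in the 11 phosphatases averaging 50 or more scaled reads and 0.178 in the 26 such kinases, beside 0.227 in all such genes. Counting error is part of this spread and is larger where reads are few. In MCAO 2 these phosphatases had from 17 reads (Dusp18 and Dusp28) to 105 (Dusp3), and these kinases from 13 (Map3k2) to 345 (Mapk10). The sides were thus compared at unlike read counts. Counting error and spread between animals were not separated.

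**Figure D2:**
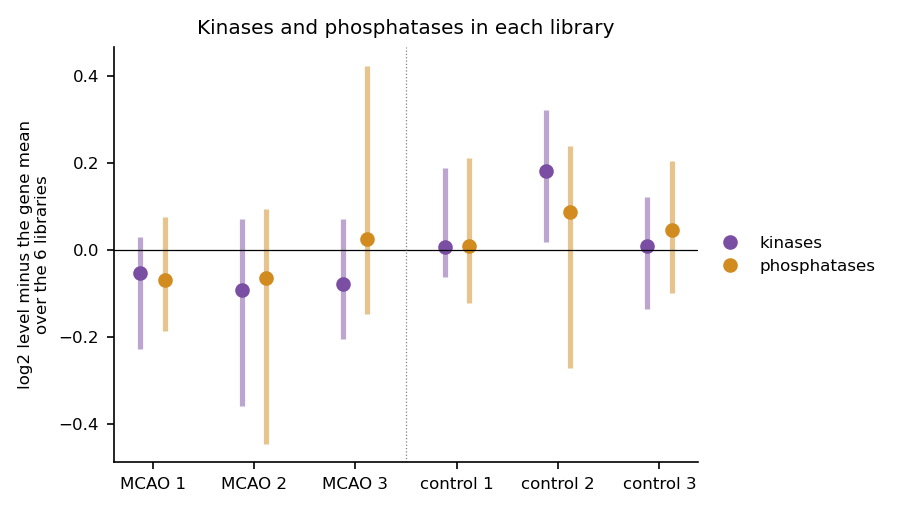
Median (point) and middle 50% (bar) of the log2 level of each gene minus its own mean over the 6 libraries (y axis), over the 34 kinases (purple) and the 18 phosphatases (orange) tested, for each library (x axis). The kinase medians run from -0.09 to -0.05 in the MCAO libraries and from 0.01 to 0.18 in the controls, with control 2 the highest. Of the MCAO libraries MCAO 3 alone has a phosphatase median above 0, at 0.02.

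Markers of several cell types differed between the same libraries. The RNA came from pulldowns, and no library of unprecipitated RNA was analysed. Differences in cell number, in RNA per cell and in what the pulldown recovered therefore cannot be told apart. Markers are said to have risen or fallen where limma called them at an adjusted p under 0.05. Of all genes tested 2.3% were called higher and 0.789% lower. Of 12 striatal neuron markers 10 fell and 0 rose, with summed scaled reads of 1712 to 2527 after MCAO and 3789 to 4025 in controls. Of 16 markers of neurons in general limma called 0 (0 at an unadjusted p under 0.05, smallest adjusted p 0.260), with sums of 23885 to 28322 after MCAO and 26170.1 to 30259.9 in controls. Of 18 microglia markers 13 rose and 0 fell, with sums of 2653 to 3612 after MCAO and 723 to 984 in controls. Of 15 oligodendrocyte markers 8 rose and 0 fell, with sums of 13189.9 to 16625 against 8857 to 9998. Of 7 cycling cell markers tested 4 rose, while of 16 astrocyte markers 1 rose, the filament gene Gfap, and 0 fell. The astrocyte sums were 54959 to 72977 after MCAO and 53454 to 89589 in controls, 11 of the 16 had a negative log2 change, and 3 were lower at an unadjusted p under 0.05. Control 2 stood apart in several of these, as in the glutamate transporter gene Slc1a3, with 2776, 2921 and 3012 scaled reads in MCAO 1, 2 and 3, against 5716, 3092 and 5846 in controls 1, 2 and 3. Of 18 listed blood myeloid markers 3 were tested and 2 rose, of 12 oligodendrocyte precursor markers and of 8 pericyte and fibroblast markers 1 rose in each list (Cspg4, which is in both), and limma called 0 of 7 endothelial and 0 of 1 lymphocyte markers (0 at an unadjusted p under 0.05 in either list). No listed marker in the table was at the floor in all 3 libraries of a group. The part of cell composition in the members' values was not tested.

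Of the MAP kinases themselves, Mapk3 (chromosome 7, 126759626 to 126765816), which encodes ERK1, had 622, 607 and 701 scaled reads in MCAO 1, 2 and 3, against 549, 573 and 613 in controls 1, 2 and 3. The groups overlap, with 2 of the 3 MCAO libraries above the highest control, and the log2 change was 0.15 (SE 0.14, 95% interval -0.14 to 0.45, limma adjusted p = 0.579).

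The atypical ERK genes Mapk6 and Mapk4 had negative log2 changes. Mapk6, the gene of ERK3, had 213, 199 and 226 scaled reads in MCAO 1, 2 and 3, against 315, 328 and 231 in controls 1, 2 and 3, a log2 change of -0.44 (SE 0.17, adjusted p = 0.173). The groups do not overlap, but control 3 lay close to the MCAO animals. Mapk4, the gene of ERK4, had 189, 239 and 238 scaled reads in MCAO 1, 2 and 3, against 313, 234 and 326 in controls 1, 2 and 3. Control 2 lay among the MCAO animals, and the log2 change of -0.38 (SE 0.17) had an adjusted p of 0.245. With control 2 and MCAO 2 left out, Mapk4 was the single member called, at -0.59 (adjusted p = 0.0455). Mapk7, the gene of ERK5, was at 42.9, 74.6 and 40.0 scaled reads in MCAO 1, 2 and 3, against 42.3, 47.9 and 36.2 in controls 1, 2 and 3, so that MCAO 2 alone stood high.

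None of the JNK genes passed the test. Mapk8, Mapk9 and Mapk10 encode JNK1, JNK2 and the mainly neural JNK3. Mapk9 had 652, 644 and 589 scaled reads in MCAO 1, 2 and 3, against 783, 770 and 706 in controls 1, 2 and 3. The groups do not overlap in this gene, whose log2 change of -0.26 (SE 0.14) had an adjusted p of 0.314. Mapk8 was at -0.20 (95% interval -0.52 to 0.12) and Mapk10 at -0.12 (-0.43 to 0.18) on the log2 scale of the change. Mapk10 had 1027, 1073 and 1037 scaled reads in MCAO 1, 2 and 3, against 1093, 1304 and 1039.7 in controls 1, 2 and 3, where control 2 stands apart. The log2 ratio of Mapk9 to Mapk8 averaged 1.18 ± 0.05 in MCAO and 1.24 ± 0.14 in control mice (SD, n = 3 each), with an exact two-sided permutation p of 0.6 (0.75 after Benjamini-Hochberg adjustment over 5 pairs chosen after the values were seen). Of these pairs 4 are given here, and 0.1 is the lowest p that 3 animals against 3 can reach.

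Of the p38 genes, Mapk14 (p38 alpha) had 247, 308 and 273 scaled reads in MCAO 1, 2 and 3, against 259, 355 and 270.1 in controls 1, 2 and 3, a log2 change of -0.09 (95% interval -0.44 to 0.27). Mapk11 (p38 beta) had 71.8, 112 and 57.9 scaled reads in MCAO 1, 2 and 3, against 58.4, 65.6 and 52.8 in controls 1, 2 and 3. Its log2 change of 0.40 (SE 0.26, adjusted p = 0.427) was 0.13 without MCAO 2, the highest library, and 0.60 without MCAO 3. The log2 ratio of Mapk11 to Mapk14 was 0.48 (SE 0.24) higher after MCAO, with overlapping groups and an exact permutation p of 0.2 (adjusted 0.333). Without MCAO 2 it was 0.30.

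Among the 7 MAP2K genes, Map2k2 (chromosome 10, 81105913 to 81124697) was the 1 member with an unadjusted p under 0.05 and a positive change. It encodes MEK2, which with the Map2k1 product MEK1 activates the ERK kinases. Map2k2 had 221, 283 and 274 scaled reads in MCAO 1, 2 and 3, against 180.2, 215 and 179.6 in controls 1, 2 and 3. Every MCAO library was above every control, MCAO 1 only just above control 2, and the log2 change was 0.43 (SE 0.16, 95% interval 0.08 to 0.78, adjusted p = 0.168). Map2k1 (chromosome 9, 64185769 to 64253605) had 1049.6, 715 and 974 scaled reads in MCAO 1, 2 and 3, against 919.5, 1183 and 849.6 in controls 1, 2 and 3. The groups overlap widely, at a log2 change of -0.11 (95% interval -0.49 to 0.27) whose sign turned when control 2 or MCAO 2 was left out. The log2 ratio of Map2k2 to Map2k1 was -2.25, -1.33 and -1.83 in MCAO 1, 2 and 3, against -2.35, -2.46 and -2.24 in controls 1, 2 and 3. The difference was 0.54 (SE 0.27), MCAO 1 lay among the controls, and the exact permutation p was 0.2. Without MCAO 2 the difference was 0.31.

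The MAP2K genes of the stress branches were nearly level between groups. Map2k4 and Map2k7, which encode the JNK-activating kinases, had log2 changes of -0.13 (95% interval -0.43 to 0.16) and -0.15 (-0.49 to 0.18). Map2k7 had 206, 202 and 238 scaled reads in MCAO 1, 2 and 3, against 215, 271 and 234 in controls 1, 2 and 3, with overlapping groups. Their ratio differed by -0.02 (SE 0.10, exact permutation p = 0.9). Map2k3 and Map2k6, whose products activate p38, were at -0.04 and -0.06, with wider intervals of -0.73 to 0.66 and -0.85 to 0.74, and their fewest reads, in MCAO 2, were 9 and 6. Map2k5, upstream of ERK5, was at 0.00 (-0.44 to 0.45).

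**Figure D3:**
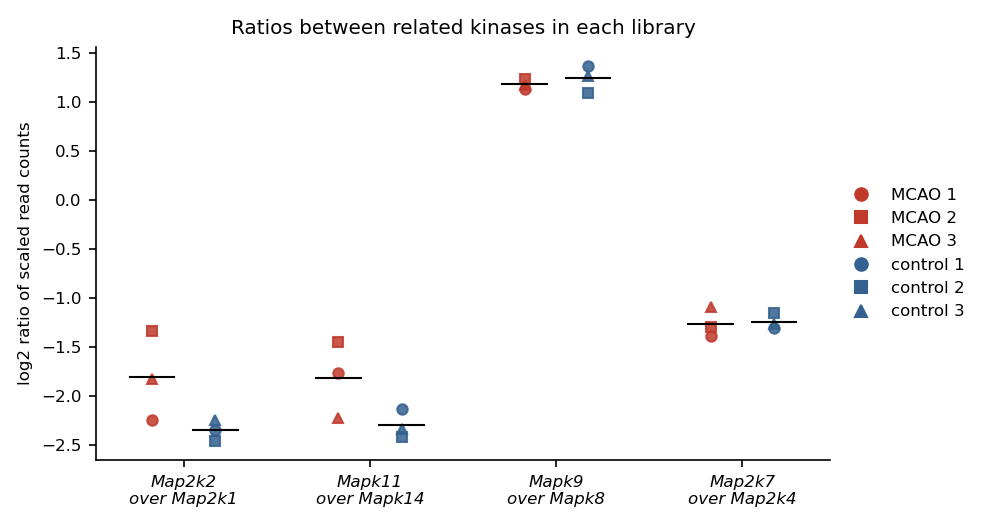
Log2 ratio of scaled read counts within a library (y axis) for 4 pairs of related kinases (x axis), with MCAO libraries in red, control libraries in blue and the group mean as a bar. The groups overlap in all 4 pairs shown, and Map2k2 over Map2k1 runs from -2.25 to -1.33 in the MCAO libraries and from -2.46 to -2.24 in the controls.

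MAP3K genes had the lowest median log2 change of the roles. Of 13 tested, 12 had a negative log2 change (92.3%, against 51.3% of all genes). In 4 of the 13 all MCAO libraries lay below all controls, a larger share than the 12.5% of all genes. The median was -0.33 beside -0.01 over all genes. Limma called 0, where 3.08% of all genes were called. At an unadjusted p under 0.05, 5 of the 13 were lower, a larger share than the 9.16% of all genes. Map3k12 (chromosome 15, 102497647 to 102517004) encodes the dual leucine zipper kinase DLK, a neuronal kinase known for its part in the response to axon injury. It had 201, 156 and 192 scaled reads in MCAO 1, 2 and 3, against 237, 365 and 266 in controls 1, 2 and 3. Control 2 was the highest, and the groups do not overlap. The log2 change was -0.64 (SE 0.18, 95% interval -1.04 to -0.25, adjusted p = 0.0780), and -0.35 with control 2 and MCAO 2 left out. Its close relative Map3k13, the gene of LZK, had a log2 change of -0.42 with overlapping groups.

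Map3k9 (chromosome 12, 81714950 to 81781170), Map3k10 and Map3k11 encode mixed lineage kinases, which feed JNK signalling. Map3k9 had 137, 146 and 134 scaled reads in MCAO 1, 2 and 3, against 199, 224 and 179.6 in controls 1, 2 and 3. The MCAO animals lay close together and below every control, and the log2 change was -0.52 (SE 0.16, adjusted p = 0.0990). Map3k10 had 365, 439 and 342 scaled reads in MCAO 1, 2 and 3, against 488, 486 and 471 in controls 1, 2 and 3. These groups do not overlap either, at a log2 change of -0.34 (SE 0.15, adjusted p = 0.216). Map3k11 was at 54.1, 46.7 and 87.3 scaled reads in MCAO 1, 2 and 3, against 73.7, 81.6 and 73.9 in controls 1, 2 and 3, so that MCAO 3 was the highest of all 6.

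Map3k2, the gene of MEKK2, which acts upstream of ERK5 and JNK, had 34.1, 40.4 and 54.0 scaled reads in MCAO 1, 2 and 3, against 64.5, 65.6 and 95.1 in controls 1, 2 and 3. All MCAO animals were below all controls, at a log2 change of -0.80 (SE 0.26, 95% interval -1.36 to -0.24, adjusted p = 0.115). The related Map3k3 was at -0.10 with overlapping groups. Map3k19 had the lowest log2 change, -1.01 (95% interval -2.01 to -0.0041), on as few as 6 reads, in MCAO 2. It had 7.06, 18.7 and 10.7 scaled reads in MCAO 1, 2 and 3, against 16.4, 23.1 and 34.7 in controls 1, 2 and 3, and MCAO 2 overlaps the controls.

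Map3k14 was the 1 MAP3K with a positive log2 change, 0.73 (95% interval -0.35 to 1.81, adjusted p = 0.459). It encodes NIK, the kinase of non-canonical NF-kappaB signalling. It had 12.4, 31.1 and 18.6 scaled reads in MCAO 1, 2 and 3, against 14.4, 15.97 and 6.04 in controls 1, 2 and 3; the value of control 3 is 4 reads, and MCAO 1 lay below 2 of the 3 controls. The log2 change was 0.33 without control 3 and 0.40 without MCAO 2. The stress and cytokine kinases Map3k5 (ASK1) and Map3k7 (TAK1) were at -0.13 (-0.52 to 0.26) and -0.23 (-0.67 to 0.20), and Map3k1 and Map3k4 at -0.14 and -0.06, with overlapping groups in all 4 genes.

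Of the 4 MAP4K genes tested, Map4k4 had the highest change. Its product is an upstream activator of JNK signalling. It had 455, 457 and 545 scaled reads in MCAO 1, 2 and 3, against 379, 439.9 and 423 in controls 1, 2 and 3, with every MCAO library above every control. The log2 change was 0.23 (SE 0.14, adjusted p = 0.413). Map4k3 had 225, 146 and 167 scaled reads in MCAO 1, 2 and 3, against 184, 264 and 172 in controls 1, 2 and 3, with overlapping groups (log2 change -0.20, 95% interval -0.64 to 0.24, and between -0.38 and -0.01 with 1 library left out). Map4k2 lay lower in all 3 MCAO libraries by a small amount, at -0.18 (-0.55 to 0.19), and Map4k5 was at -0.11.

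The accessory genes include the JIP scaffolds Mapk8ip1, Mapk8ip2 and Mapk8ip3, which hold together kinases of the JNK branch. The groups overlap in all 5 accessory genes, and log2 changes ran from -0.19 for Mapk8ip3 to 0.33 for Mapk1ip1. Mapk8ip3 had 1268, 1278 and 1339 scaled reads in MCAO 1, 2 and 3, against 1277, 1882 and 1331 in controls 1, 2 and 3, so that control 2 alone stood high, and its log2 change was -0.00986 without it. Mapk1ip1 had 35.9, 52.9 and 37.3 scaled reads in MCAO 1, 2 and 3, against 37.1, 28.4 and 33.2 in controls 1, 2 and 3, with MCAO 2 alone high and a log2 change of 0.16 without it.

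**Figure D4:**
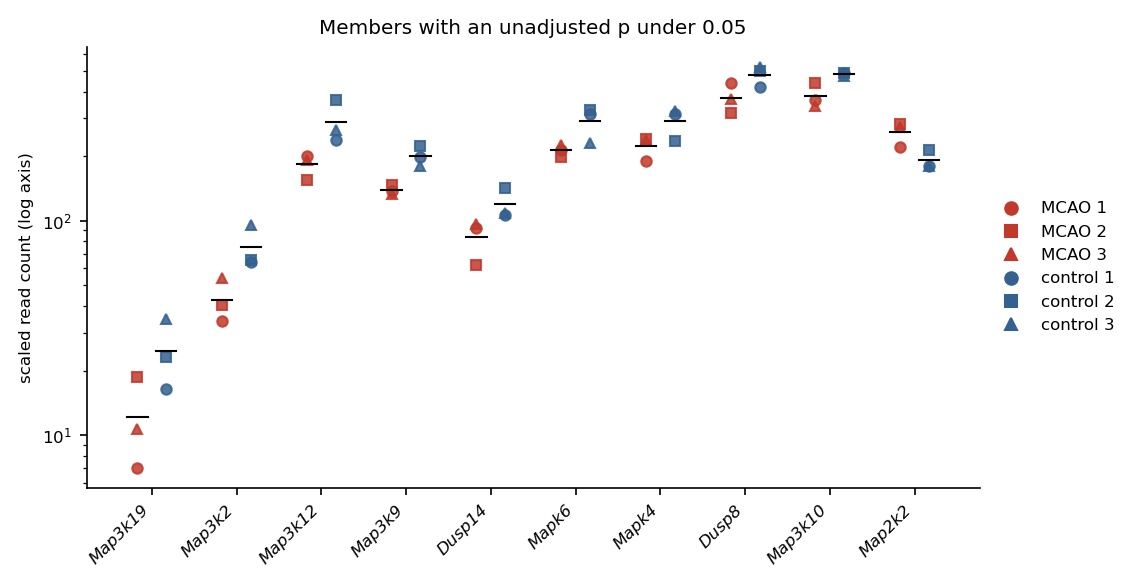
Scaled read counts (y axis, log scale) of 10 members with an unadjusted p under 0.05 (x axis), with 1 symbol per library, MCAO in red, controls in blue and the group mean as a bar. The MCAO mean is lower in 9 of the 10 and higher in Map2k2, at 259 against 191.

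The 8 MAP kinase phosphatases tested, which carry a kinase-docking domain, divided evenly, with 4 positive and 4 negative log2 changes and a median of -0.05. Dusp1 and Dusp6 varied widely among the MCAO animals. Dusp1 (chromosome 17, 26505591 to 26508472) encodes MKP-1, an inducible nuclear phosphatase of p38 and JNK. It had 64.1, 71.5 and 183 scaled reads in MCAO 1, 2 and 3, against 87.2, 121 and 73.9 in controls 1, 2 and 3. MCAO 3 was the highest and MCAO 1 the lowest of all 6 libraries. The log2 change of 0.04 (95% interval -0.67 to 0.75, adjusted p = 0.966) was -0.44 without MCAO 3. Dusp6 (chromosome 10, 99263231 to 99267489) encodes MKP-3, a cytoplasmic phosphatase of ERK that ERK signalling induces. It had 66.5, 109 and 162 scaled reads in MCAO 1, 2 and 3, against 136, 121 and 116 in controls 1, 2 and 3. Again MCAO 3 was highest and MCAO 1 lowest, around a log2 change of -0.23 (-0.79 to 0.33), which was 0.10 without MCAO 1.

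Dusp5 (chromosome 19, 53529145 to 53541809) encodes a nuclear, ERK-specific phosphatase. It had 26.5, 34.2 and 43.3 scaled reads in MCAO 1, 2 and 3, against 21.0, 24.8 and 21.1 in controls 1, 2 and 3. Every MCAO library was above every control, MCAO 3 the highest, and the log2 change was 0.59 (SE 0.32, 95% interval -0.11 to 1.28, adjusted p = 0.342). The fewest reads behind these values were 11, in MCAO 2.

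Immediate early genes of the pathway, whose transcription MAP kinases induce within minutes, had the same order among the MCAO animals in some cases and another in others. Fos had 30.0, 77.8 and 133 scaled reads in MCAO 1, 2 and 3, against 57.3, 67.4 and 54.3 in controls 1, 2 and 3. Junb had 66.5, 109 and 155 scaled reads in MCAO 1, 2 and 3, against 76.8, 86.9 and 72.4 in controls 1, 2 and 3. Egr1 had 142, 246 and 427 scaled reads in MCAO 1, 2 and 3, against 321, 417 and 332 in controls 1, 2 and 3. In Dusp1, Dusp5, Dusp6, Fos, Junb and Egr1 alike, MCAO 1 was the lowest and MCAO 3 the highest of the MCAO animals, with MCAO 2 between them. All of these genes were chosen after their values were seen, and with 3 animals no correlation is given. Reads in MCAO 2 were few, with 23 in Dusp1, 11 in Dusp5 and 35 in Dusp6, so that its place in the order is uncertain. Of 18 phosphatases tested 6 had that order (Dusp12, Dusp16 and Dusp28 as well), of 34 kinases 4 (Map2k3, Map3k2, Map3k4 and Map4k4) and of 28 transcription factors in the list 9, beside 12.6% of all genes. The rest of these 9 transcription factors were Fosl2, Jun, Etv1, Etv4, Egr2 and Egr3. Several other immediate early genes did not have the order. Fosb had 10.6, 21.8 and 14.7 scaled reads and Ier2 had 20.6, 52.9 and 45.3 in MCAO 1, 2 and 3, with MCAO 2 highest in both. MCAO 3 was the lowest MCAO library in Ier3, at 14.7 scaled reads, and MCAO 1 the highest in Myc, at 32.4. Egr4 differed in that MCAO 2 was the lowest, with 40.0, 31.1 and 92.6 scaled reads in MCAO 1, 2 and 3, against 94.7, 114 and 103 in controls 1, 2 and 3 (log2 change -1.07, adjusted p = 0.0913). Egr2 was at the floor in MCAO 1 and at 3.11 and 26.0 scaled reads in MCAO 2 and 3, against 20.7, 24.8 and 22.6 in controls 1, 2 and 3. The value of MCAO 2 is 1 read.

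**Figure D5:**
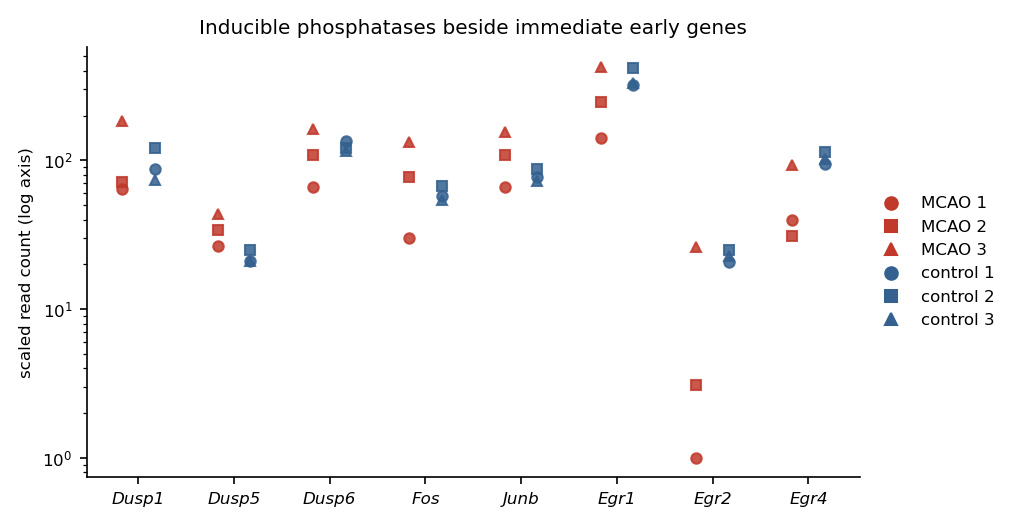
Scaled read counts (y axis, log scale) of 3 inducible phosphatase genes and 5 immediate early genes (x axis), with 1 symbol per library, MCAO in red and controls in blue. MCAO 3 (triangle) is the highest MCAO library in these 8 genes, which were chosen after their values were seen, with Dusp1 at 183 against 64.1 in MCAO 1. In Fosb, Ier2, Ier3 and Myc, not plotted, it is not the highest.

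The promoters of these 3 phosphatases, which were chosen after their values were seen, are shown. Their genes are known to be induced by MAP kinase signalling. Each window runs from 250 bases before to 50 bases after the start of the gene (RefSeq, GRCm38.p6), 5′ to 3′ on the strand of the gene. Capitals mark the cAMP response element TGACGTCA, its core TGACG on either strand, and the CArG box, the binding site of serum response factor. The core lies within the full element on both strands.
Dusp1, chr17:26508423-26508722, minus strand: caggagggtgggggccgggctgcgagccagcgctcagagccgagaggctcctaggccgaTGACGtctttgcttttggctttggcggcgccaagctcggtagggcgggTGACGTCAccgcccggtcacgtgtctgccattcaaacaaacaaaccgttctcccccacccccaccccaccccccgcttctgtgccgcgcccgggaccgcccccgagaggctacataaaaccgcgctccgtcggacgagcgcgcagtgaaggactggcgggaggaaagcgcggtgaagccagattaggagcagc
Dusp5, chr19:53528895-53529194, plus strand: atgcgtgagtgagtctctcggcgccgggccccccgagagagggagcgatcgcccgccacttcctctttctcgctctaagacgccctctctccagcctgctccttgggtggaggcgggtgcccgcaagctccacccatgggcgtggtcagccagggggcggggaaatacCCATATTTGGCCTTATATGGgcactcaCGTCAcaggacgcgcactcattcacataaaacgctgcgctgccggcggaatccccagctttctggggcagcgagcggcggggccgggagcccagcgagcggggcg
Dusp6, chr10:99262981-99263280, plus strand: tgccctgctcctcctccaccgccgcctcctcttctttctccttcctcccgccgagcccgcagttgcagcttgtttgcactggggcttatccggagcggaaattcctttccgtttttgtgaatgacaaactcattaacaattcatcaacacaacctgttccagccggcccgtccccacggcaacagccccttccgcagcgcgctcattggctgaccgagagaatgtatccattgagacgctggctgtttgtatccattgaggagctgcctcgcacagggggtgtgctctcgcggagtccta

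The Dusp1 window holds 1 full element, which begins 143 bases before the start, and a separate core at 191 bases. The Dusp5 window holds 2 CArG boxes, which begin 82 and 72 bases before the start, and 1 core at 55 bases. The Dusp6 window holds none of the 3 motifs in these letters. In all 32851 RefSeq promoter windows the shares were 1.79% for the full element, 20.8% for its core and 1.63% for the CArG box. Of 46 members with a window, 3 held the full element (Dusp1, Dusp8 and Mapk10), 19 the core and 1 the CArG box (Dusp5). These matches are letters in a window and not evidence of binding.

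None of the other MAP kinase phosphatases was called either. Dusp8 alone of the 8 tested had an unadjusted p under 0.05 by limma. Dusp8, whose product acts on JNK and p38, had 437, 317 and 369 scaled reads in MCAO 1, 2 and 3, against 420.2, 497 and 521 in controls 1, 2 and 3. MCAO 1 overlapped the controls, and the log2 change was -0.36 (SE 0.16, adjusted p = 0.232). Dusp4, which encodes the nuclear phosphatase MKP-2, had 12.9, 12.4 and 18.6 scaled reads in MCAO 1, 2 and 3, against 25.04, 28.4 and 19.6 in controls 1, 2 and 3. All MCAO libraries were lower, MCAO 3 only just below control 3, at a log2 change of -0.70 (95% interval -1.53 to 0.13), and the value of MCAO 2 is 4 reads. Dusp7, an ERK phosphatase, was at 0.11 (-0.25 to 0.48), Dusp16, a JNK phosphatase, at -0.14 (-0.68 to 0.40), and Dusp10, which acts on JNK and p38, at 0.04 (-1.02 to 1.10).

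Of the 10 atypical DUSPs tested, small phosphatases without the docking domain, 5 had positive and 5 negative log2 changes, with a median of -0.07. Dusp14 had 92.4, 62.2 and 96.6 scaled reads in MCAO 1, 2 and 3, against 106, 142 and 109 in controls 1, 2 and 3. The groups do not overlap, with MCAO 2 lowest and control 2 highest, and the log2 change was -0.52 (SE 0.22, adjusted p = 0.216). It was -0.32 without MCAO 2 and -0.19 without both of these. Dusp3, the gene of VHR, a phosphatase of ERK and JNK, had 361, 327 and 312 scaled reads in MCAO 1, 2 and 3, against 387, 417 and 424 in controls 1, 2 and 3. It was lower in every MCAO library, by a log2 change of -0.30 (95% interval -0.60 to 0.0035, adjusted p = 0.265). Dusp19 had 34.7, 21.8 and 21.3 scaled reads in MCAO 1, 2 and 3, against 42.6, 37.3 and 37.7 in controls 1, 2 and 3, again without overlap, at -0.61 (-1.28 to 0.05). Dusp11, which acts on RNA rather than on MAP kinases, had 78.2, 109 and 81.9 scaled reads in MCAO 1, 2 and 3, against 70.5, 56.8 and 75.5 in controls 1, 2 and 3, all MCAO libraries above all controls, at 0.40 (-0.07 to 0.87). Dusp15 had the highest log2 change of these genes, 0.55 (-0.29 to 1.39), with 37.3 scaled reads in MCAO 2 and 20.003 and 23.3 in MCAO 1 and 3, against 21.6, 12.4 and 19.6 in controls 1, 2 and 3. The log2 change was 0.295 without MCAO 2 and 0.321 without control 2. The remaining 5, Dusp12, Dusp18, Dusp22, Dusp26 and Dusp28, had overlapping groups and log2 changes from -0.35 to 0.44.

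No gene around the cascade was called either. Of 133 tested genes in 8 lists of other pathway members, limma called 0, with 36 at an unadjusted p under 0.05 (27.1%, against 19.3% of all genes), 31 of them lower (23.3%, against 9.16%) and 5 higher (3.76%, against 10.1%). The median log2 change was -0.17. Of 20 receptor tyrosine kinases 18 had a negative log2 change, with a median of -0.36. Egfr, the epidermal growth factor receptor gene, had 85.3, 71.5 and 76.6 scaled reads in MCAO 1, 2 and 3, against 138, 121 and 124 in controls 1, 2 and 3, without overlap, with a log2 change of -0.71 (SE 0.18, adjusted p = 0.0545). Ntrk2, the receptor gene for BDNF, had 2679, 2802 and 3055 scaled reads in MCAO 1, 2 and 3, against 4446, 2863 and 4500.0 in controls 1, 2 and 3. Control 2 was close to the MCAO animals and below MCAO 3, while the other controls lay far above (log2 change -0.44, adjusted p = 0.235). Ntrk2 was called without control 2 (-0.65, adjusted p = 0.0209), without control 2 and MCAO 2 (-0.64, adjusted p = 0.0106) and with library weights (-0.56, adjusted p = 0.0273).

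At the level of Ras and Raf, 14 genes had a median log2 change of -0.01. Braf, a MAP3K of the ERK branch that the naming rule leaves out, had 284, 187 and 209 scaled reads in MCAO 1, 2 and 3, against 356, 380 and 309 in controls 1, 2 and 3. It was lower in every MCAO library, by a log2 change of -0.64 (SE 0.17, adjusted p = 0.0657). Taok1 was at -0.42 (SE 0.14, adjusted p = 0.128) and Rasgrf1, of the 23 Ras activators and inhibitors (median -0.22), at -0.20 (SE 0.17). Of the 9 feedback inhibitors 2 are named. Spred2, an inhibitor of Ras to Raf signalling, had 146, 165 and 155 scaled reads in MCAO 1, 2 and 3, against 234, 222 and 247 in controls 1, 2 and 3, without overlap, at -0.59 (SE 0.15, adjusted p = 0.0518). Pebp1, the gene of the Raf kinase inhibitor protein, had 1041, 1191 and 1128 scaled reads in MCAO 1, 2 and 3, against 763, 619 and 899 in controls 1, 2 and 3, higher in every MCAO library by 0.57 (SE 0.16, adjusted p = 0.0696). Egfr, Braf, Spred2 and the immediate early genes were singled out after their values were seen.

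Downstream of the MAP kinases, the 11 kinases that MAP kinases activate had a median log2 change of -0.09, with Rps6ka2 at -0.21 (SE 0.16, adjusted p = 0.490). The 8 other phosphatases that act on MAP kinases had a median of -0.03 and 0 at an unadjusted p under 0.05, with Ppp2ca, a catalytic subunit of protein phosphatase 2A, at 0.08 (SE 0.14). The 20 scaffolds and adaptors tested had a median of 0.22, with Pea15a, which encodes an ERK-binding protein abundant in astrocytes, at 0.34 (SE 0.18, adjusted p = 0.313). The 28 transcription factors had a median of -0.22, with Mef2c at -0.21 (SE 0.15, adjusted p = 0.493).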

How the data were processed

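PolyA RNA from RiboTag immunoprecipitation was sequenced from 3 MCAO and 3 control mice with Illumina TruSeq libraries, per the labels' protocols. The authors deposited 1 table of normalised signal, 12968 genes by 6 libraries. Per the submitters' processing notes the build is mm10, and the tools named, without their roles, are DESeq2, R 3.3.1, Partek 6.6, HISAT2 and CASAVA 1.8. How reads were assigned, filtered and scaled, and whether strand was used, is not stated, so overlapping genes and close paralogs cannot be separated from the values. Each column of the deposited signal is made of whole multiples of 1 step (within 0.1 read, for 99.95% of values in control 1 and all values in the others), apart from a floor of 1. Division by the step gave depth. A count of 0 allows up to 3 reads, or 0.863 to 9.33 scaled reads, for counting error only.

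Log2(value + 1) of 12549 genes averaging 10 or more scaled reads was fitted with limma 3.58.1 in R 4.3.3 (intensity trend, two-sided, Benjamini-Hochberg). The fold scale understates changes of low genes. Exact permutation tests used scipy 1.17.1. The fit was tested on simulated data. Labels give no batch or sex. P-values measure the spread between animals, counting error included. Libraries correlated at 0.934 to 0.966 within groups and 0.890 to 0.943 between them across genes, and none repeats another. The members, gene lists and tests were chosen with earlier results of these data known. Genes named by rule are called members (0), those at an unadjusted p under 0.05 (11), the extremes and the best counted member of each role, 10 preset members, Rpl22 and the leading gene of each pathway list. The values of 1 member are not reported here; counts and medians include it.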

Additional observations from a re-analysis of the deposited data

How the results depend on the processing

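Depth limits the members with few reads, chiefly in MCAO 2. Across 16 alternatives, members called stayed at 0 except with library weights, which called 4 (Map2k2 at 0.49, Map3k10 at -0.41, Map3k9 at -0.52 and Mapk4 at -0.47) where 7.98% of all genes were called, and with control 2 and MCAO 2 left out, which called 1 (Mapk4) where 4.46% of all genes were called; leaving out any 1 library called 0. Of 489 values of the 31 named members, 474 kept their direction and their side of the threshold. The 10 that turned sign belonged to 5 members: Dusp1 (-0.436, -0.000144 and -0.118 without MCAO 3, control 1 and control 3, and up to 0.314 without another library), Dusp6 (0.0993 without MCAO 1, -0.536 without MCAO 3), Map2k1 (-0.223 to 0.0535 with 1 library left out, positive without MCAO 2 or control 2, 0.194 without both, 0.0372 with library weights), Map4k3 (0.121 without control 2 and MCAO 2) and Mapk14 (-0.172 to 0.0535 with 1 library left out, positive without control 2). All genes called numbered 387, against 1002 with library weights, 157 with no intensity trend and 144 to 304 with 1 library left out (235, 144, 225 and 245 without MCAO 2, MCAO 3, control 1 and control 3). Pathway list genes called numbered 0, against 10 with library weights, 6 without control 2 and MCAO 2, 0 to 2 with 1 library left out (1 without MCAO 1, 2 without MCAO 3, 2 without control 2), and 1 (Spred2) with a pseudocount of 5, a mean of at least 50 or robust moderation, and 1 (Egfr) with quantile normalisation. The kinase median was -0.0632 without control 2 and MCAO 2 and -0.216 to -0.0979 with 1 library left out. The phosphatase median was 0.0223 with library weights, -0.175 at a mean of at least 50, 0.0371 with no filter, -0.168 with quantile normalisation and -0.21 to -0.0256 with 1 library left out. Kinase minus phosphatase was 0.00759 at a mean of at least 50, 0.0116 with quantile normalisation, -0.173 with no filter and -0.179 (without MCAO 1) to 0.0445 (without MCAO 3) with 1 library left out. The corresponding difference of means was -0.11, and it ran from -0.16 to -0.04 with 1 library left out, which is not a confidence interval. Log2 ratio differences ranged, with 1 library left out, from 0.31 to 0.765 for Map2k2 over Map2k1 (0.255 without control 2 and MCAO 2), from 0.302 to 0.685 for Mapk11 over Mapk14 (0.24), from -0.102 to 0.0463 for Map2k7 over Map2k4 (0.0629 with library weights, 0.0445 without control 2 and MCAO 2) and from -0.137 to 0.00268 for Mapk9 over Mapk8. The causes were not tested. Count models were not run, since the floor hides the lowest reads. No paired analysis was possible because the labels give no shared replicate numbers.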
